A study of Homo sapiens with 24 samples.

Results

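The D-type cyclins, the kinases they activate and the inhibitors that restrain these kinases were followed in SW872, an established human liposarcoma cell line. The genes were chosen by function and looked up by Ensembl identifier. They were the D-type cyclins CCND1, CCND2 and CCND3, the cyclin-dependent kinases CDK4 and CDK6, the CIP/KIP inhibitors CDKN1A (p21), CDKN1B (p27) and CDKN1C (p57), and the INK4 inhibitors CDKN2B (p15) and CDKN2C (p18). These were 10 of the 60279 genes listed per library, and all 10 were among the 19997 that entered the tests, for which a mean of 5 counts per library was required. CCND2 reached that mean only through the groups in which it was high, so its passing the filter supports nothing.

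Poly(A) RNA was sequenced from cells stably transduced with an empty vector (EV) or with a vector for 1 of 6 proteins, in 8 groups of 3 libraries and 24 libraries in all. TAZ-CAMTA1 and YAP-TFE3 are the fusion proteins of epithelioid hemangioendothelioma, which join the N terminus of the Hippo pathway coactivators TAZ or YAP to the C terminus of the transcription factors CAMTA1 or TFE3. The other proteins were full-length CAMTA1 and TFE3, and TAZ4SA and YAP5SA, forms of TAZ and YAP in which serines phosphorylated by the LATS kinases of the Hippo pathway were replaced by alanine. Cells were collected 48 h after reaching confluence, except the CAMTA1 cells and a second empty vector set, here EVsub, which were collected below confluence. Every group thus carried a retroviral vector, and the proteins were expressed from the vector and not from their own promoters. The 3 libraries of a group came from cell lines that were transduced and selected separately, so the p-values below measure the spread between such lines.

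D-type cyclins bind and activate CDK4 and CDK6 in the first gap phase of the cell cycle, and the complexes phosphorylate the retinoblastoma protein RB1, which releases E2F factors to transcribe the genes of DNA replication. INK4 proteins bind CDK4 and CDK6 alone and keep the cyclins off them, whereas CIP/KIP proteins bind whole cyclin-CDK complexes, block those that hold CDK2 and can help D-type complexes assemble. In liposarcoma, CDK4 is known as a gene of the amplified part of the long arm of chromosome 12, and CCND1 is a commonly described target of YAP and TAZ in other cells.

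Library totals ranged from 19700277 to 35287476 counts. The summed level of 5 mesenchymal markers lay between 1921 and 7991 CPM (the count relative to the scaled library size, times 1000000) in each library, that of 4 adipocyte markers between 0.361 and 1.79 CPM with 1 of the 4 at 0 throughout, that of 3 leukocyte markers between 0.923 and 2.28 CPM, that of 3 epithelial markers between 0.572 and 2.45 CPM, and that of 3 endothelial markers between 9.97 and 75.9 CPM. The defining fat cell markers were thus near 0 in this line. CAMTA1 was counted at 144 CPM in TAZ-CAMTA1 and 124 CPM in CAMTA1 libraries against 21.4 CPM in EV, TFE3 at 283 CPM in YAP-TFE3 and 336 CPM in TFE3 libraries against 119 CPM, and YAP1 at 253 CPM in YAP5SA against 128 CPM. YAP1 rose less in YAP-TFE3 (log2 0.26 over EV). TFE3 in YAP-TFE3 exceeded EV by log2 1.25 but YAP5SA by only log2 0.61, so TFE3 was also raised in YAP5SA, which carries no TFE3 construct. WWTR1, the gene of TAZ, was lower in the libraries labelled TAZ4SA (134 CPM) than in EV (204 CPM). Its level thus does not bear out the label, and these libraries are called by their label throughout. A lower WWTR1 level was not particular to them. It was also lower than in EV in YAP-TFE3 (log2 -0.70), and lower in YAP5SA than in YAP-TFE3 (YAP-TFE3 minus YAP5SA log2 0.87). In TAZ-CAMTA1, the other construct with TAZ sequence, WWTR1 was not raised over EV either (log2 -0.17, not called). The third YAP-TFE3 library stood apart from its group, with a mean Euclidean distance (log2 CPM, 500 most variable genes) of 21.1 to the other libraries of the group, against 15.4 and 15.5 for the first and second, and where leaving it out changed a call or moved a named gene's difference by over 1.5-fold, the value without it is given. The third YAP5SA library stood apart likewise (20.7 against 16.1 and 16.0), and the 4 members called in YAP5SA against EV kept their call in each of the 6 fits without 1 library of either group.

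Upstream sequences are shown for CDKN2B and CDKN2C, the inhibitors that moved most in YAP-TFE3 cells, and for CCND3 and CDK4, the other members whose upstream windows held a searched motif. RefSeq start sites (GRCh38.p14) gave 12 windows of 250 bases upstream for 7 of the 10 genes. CCND1, CCND2 and CDKN1C had no entry in the table used. Both strands were searched for GGAATG, the core letters bound by the TEAD partners of YAP and TAZ, for CACGTG, the E-box form bound by TFE3 and its relatives, and for the AP-1 letters TGANTCA. Capitals mark the letters found, written 5′ to 3′ on the gene's strand, so that GGAATG on the other strand reads CATTCC. The searched letters do not overlap each other in these stretches.
CDKN2B, chr9:22009473-22009529, minus strand: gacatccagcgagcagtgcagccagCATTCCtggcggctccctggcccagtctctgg
CDKN2C, chr1:50970035-50970207, plus strand: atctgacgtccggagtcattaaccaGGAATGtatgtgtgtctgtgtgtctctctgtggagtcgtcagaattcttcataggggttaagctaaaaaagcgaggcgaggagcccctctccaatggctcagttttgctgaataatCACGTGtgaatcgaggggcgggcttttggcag
CCND3, chr6:41941818-41941874, minus strand: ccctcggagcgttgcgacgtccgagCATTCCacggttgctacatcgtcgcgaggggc
CDK4, chr12:57752380-57752551, minus strand: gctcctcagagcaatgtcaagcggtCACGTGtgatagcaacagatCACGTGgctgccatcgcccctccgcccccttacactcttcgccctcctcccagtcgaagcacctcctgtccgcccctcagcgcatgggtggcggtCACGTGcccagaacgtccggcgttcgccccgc

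The TEAD letters stood 199 bases upstream of the CDKN2B start, 185 bases upstream of 1 of the CDKN2C starts and 41 bases upstream of 1 of the CCND3 starts. The E-box stood 69 bases upstream of the same CDKN2C start, and 3 times upstream of CDK4, at 216, 196 and 101 bases. Another CDKN2C start had an E-box 220 bases upstream, and a further one had the TEAD letters 128 bases upstream. Of 35116 such windows of all genes in the table, 11.9% held GGAATG, 6.34% held CACGTG, 6.57% held TGANTCA, and 0.0797% held CACGTG at least 3 times. These matches describe letters in a window and are no evidence of binding. None of the 12 windows held the AP-1 letters.

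**Figure D1:**
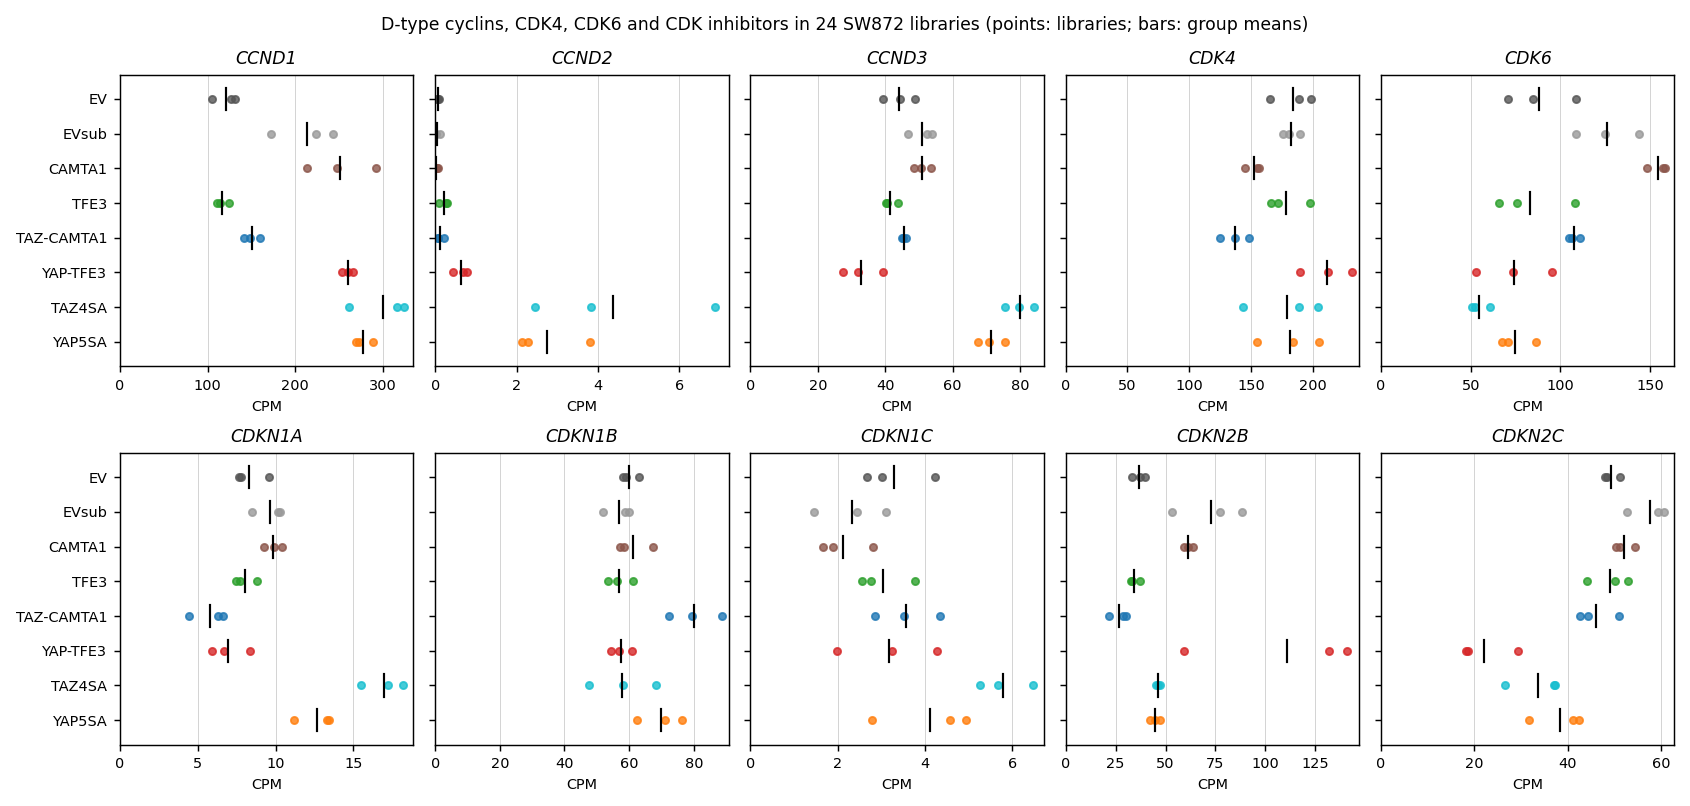
Level of each of the 10 genes in each of the 24 libraries. The horizontal axes give CPM from 0, with a separate scale for each gene, the rows give the 8 groups, points are libraries and vertical bars are group means. CCND1 lay between 254 and 324 CPM in every YAP-TFE3, TAZ4SA and YAP5SA library and between 105 and 132 CPM in EV, and CDKN2B was highest in the first and second YAP-TFE3 libraries.

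CCND1 (ENSG00000110092, chromosome 11, 69641156 to 69654474, plus strand in GRCh38) encodes cyclin D1, and LTO1 overlaps it on the opposite strand, at group means of 19.5 to 31.2 CPM. In EV it stood at 132, 126 and 105 CPM, in the libraries labelled TAZ4SA at 316, 324 and 261 CPM, in YAP5SA at 269, 273 and 289 CPM and in YAP-TFE3 at 254, 260.1 and 266 CPM. All 9 libraries of these 3 groups exceeded all 3 EV libraries. Compared with EV, CCND1 rose 2.48-fold in the libraries labelled TAZ4SA (log2 1.31 ± 0.12 SE, edgeR adjusted p = 3.33e-09), 2.29-fold in YAP5SA (log2 1.19 ± 0.12, edgeR adjusted p = 1.54e-08) and 2.15-fold in YAP-TFE3 (log2 1.10 ± 0.12, edgeR adjusted p = 4.93e-08). In bulk RNA such a difference cannot be told apart from a change in the share of cells that express the gene.

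TAZ-CAMTA1 was the exception among the YAP and TAZ proteins. Its 3 libraries stood at 148, 160.4 and 142 CPM, above all EV libraries but with a difference of log2 0.31 ± 0.12 that missed the threshold (edgeR adjusted p = 0.143). CCND1 was 2.00-fold lower in TAZ-CAMTA1 than in the libraries labelled TAZ4SA (log2 -1.0 ± 0.12, edgeR adjusted p = 2.09e-07) and 1.73-fold lower than in YAP-TFE3 (log2 -0.79 ± 0.12, edgeR adjusted p = 7.87e-06). Between YAP-TFE3 and YAP5SA the difference was log2 -0.09 ± 0.12 (edgeR adjusted p = 0.536). The TAZ fusion and the YAP fusion therefore differed from each other in cyclin D1 mRNA, while a difference between the YAP fusion and YAP5SA was not detected.

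CCND1 also differed between confluent and sub-confluent cultures. EVsub libraries stood at 224, 172 and 243 CPM, all above EV, and the difference from EV was 1.76-fold (log2 0.82 ± 0.12, edgeR adjusted p = 2.07e-05). CAMTA1 libraries, also collected below confluence, stood at 293, 248 and 213 CPM and overlapped EVsub (log2 0.24 ± 0.12, edgeR adjusted p = 0.424). TFE3 libraries, collected after confluence, stood at 124, 115 and 111 CPM and overlapped EV (log2 -0.05 ± 0.12, edgeR adjusted p = 1.0). In the order of group means, the libraries labelled TAZ4SA (301 CPM) overlapped YAP5SA (277 CPM), YAP-TFE3 (260.1 CPM) overlapped CAMTA1 (251 CPM), CAMTA1 overlapped EVsub (213 CPM) and EV (121 CPM) overlapped TFE3 (117 CPM), while the gaps below YAP5SA, below EVsub and below TAZ-CAMTA1 (150.3 CPM) held no overlapping library.

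CCND2 (ENSG00000118971, chromosome 12, 4269771 to 4305353, plus strand), the cyclin D2 gene, was close to undetected in empty vector cells. The 3 EV libraries held 1, 2 and 2 counts, while those labelled TAZ4SA held 61, 89 and 178 counts and those of YAP5SA 45, 48 and 95 counts. YAP-TFE3 libraries held 24, 22 and 15 counts. Every library of these 3 groups thus held more counts than any EV library, and in the other groups a library held at most 10 counts.

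As a ratio of summed counts scaled by library size, CCND2 was 67.2 times the EV level in the libraries labelled TAZ4SA (exact 95% interval 28.5 to 208), 42.5 times in YAP5SA (17.9 to 132) and 9.52 times in YAP-TFE3 (3.86 to 30.4), intervals that cover counting error only. The edgeR adjusted p-values of these comparisons were 3.79e-09, 6.4e-08 and 0.000617, from tests that CCND2 entered only through the groups in which it was high. CCND2 was lower in YAP-TFE3 than in YAP5SA (ratio 0.224, interval 0.165 to 0.300, edgeR adjusted p = 4.46e-05) and lower in TAZ-CAMTA1 than in the libraries labelled TAZ4SA (ratio 0.0256, interval 0.0122 to 0.0478, edgeR adjusted p = 4.24e-09, with a fitted log2 of -5.22 that was -5.92 without the second TAZ-CAMTA1 library). TAZ-CAMTA1 libraries, with 2, 6 and 2 counts, were not distinguished from EV (ratio 1.72, interval 0.536 to 6.42, edgeR adjusted p = 0.751). TFE3 libraries, with 10, 3 and 8 counts, gave a ratio of 3.25 with a counting interval of 1.19 to 11, but this was not called (edgeR adjusted p = 1.0). Even at its highest, CCND2 made up 0.733% ± 0.448 (SD, n = 3) of D-type cyclin mRNA per kb in the libraries labelled TAZ4SA.

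CCND3 (ENSG00000112576, chromosome 6, 41934934 to 42050357, minus strand) encodes cyclin D3 and separated the YAP fusion from YAP5SA. It stood at 39.2, 44.3 and 48.8 CPM in EV, 70.8, 75.7 and 67.7 CPM in YAP5SA, 84.3, 75.7 and 79.7 CPM in the libraries labelled TAZ4SA, and 27.6, 31.8 and 39.3 CPM in YAP-TFE3. The groups labelled TAZ4SA and YAP5SA did not overlap EV and lay above it, whereas the third YAP-TFE3 library reached just into the EV range. CCND3 rose 1.81-fold in the libraries labelled TAZ4SA (log2 0.86 ± 0.10, edgeR adjusted p = 2.6e-07) and 1.62-fold in YAP5SA (log2 0.70 ± 0.10, edgeR adjusted p = 6.24e-06), and fell 1.34-fold in YAP-TFE3 (log2 -0.42 ± 0.10, edgeR adjusted p = 0.00163). Without the third YAP-TFE3 library the last difference was log2 -0.57 (edgeR adjusted p = 3.06e-05).

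Between YAP-TFE3 and YAP5SA, CCND3 differed 2.17-fold (log2 -1.12 ± 0.10, edgeR adjusted p = 3.24e-09), where CCND1 had not differed detectably. TAZ-CAMTA1 libraries stood at 45.2, 46.2 and 45.0 CPM, within the EV range (log2 0.05 ± 0.10, edgeR adjusted p = 0.868), and were higher than YAP-TFE3 (log2 0.47 ± 0.10, edgeR adjusted p = 0.000735) and lower than the libraries labelled TAZ4SA (log2 -0.81 ± 0.10, edgeR adjusted p = 4.91e-07). EVsub (51.0 CPM) and CAMTA1 (51.0 CPM) libraries overlapped each other, and EVsub overlapped EV (log2 0.21 ± 0.10, edgeR adjusted p = 0.112).

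**Figure D2:**
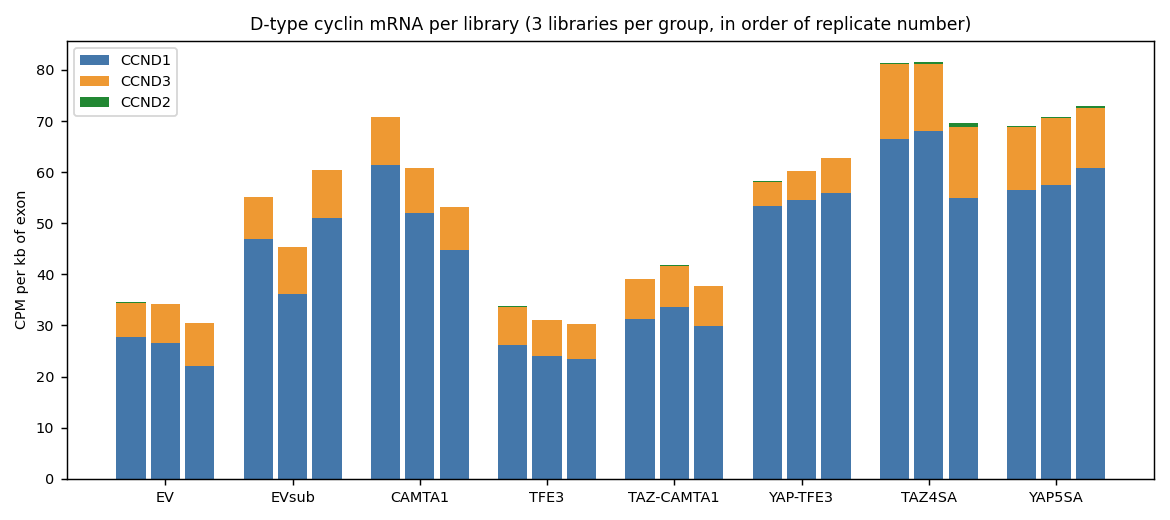
Summed mRNA level of the D-type cyclins in each library, in CPM per kb of exon, with 1 bar per library and the colours giving CCND1, CCND3 and CCND2. The sum lay between 30.4 and 34.5 in EV and TFE3 libraries and between 58.2 and 81.6 in YAP-TFE3, TAZ4SA and YAP5SA libraries, and the CCND2 part was barely visible in any group.

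Levels per kb of exon put the cyclins on a rough common scale. The length used was that of all annotated exons of a gene merged (4761 bases for CCND1, 7988 for CCND2 and 5761 for CCND3). It is not that of the transcripts expressed here, so shares and ratios between genes are approximate, here and below. The summed D-type cyclin level was 33.1 ± 2.22 CPM per kb in EV (SD, n = 3), 39.5 ± 2.07 in TAZ-CAMTA1, 60.4 ± 2.33 in YAP-TFE3, 71.0 ± 1.92 in YAP5SA and 77.5 ± 6.89 in the libraries labelled TAZ4SA. On this scale CCND1 was the main D-type cyclin in every group. Its share of the sum was 80.3%, 77.5% and 72.2% in the EV libraries and 91.6%, 90.7% and 89.0% in the YAP-TFE3 libraries, with no overlap. The share was 79.9% ± 0.734 in TAZ-CAMTA1, 82.0% ± 1.11 in YAP5SA and 81.3% ± 2.24 in the libraries labelled TAZ4SA. CCND3 made up 9.42% ± 1.34 in YAP-TFE3 and 23.3% ± 4.08 in EV. These shares are given as descriptions, since 3 libraries against 3 cannot give an exact permutation p below 0.1.

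CDK4 (ENSG00000135446), the main catalytic partner of cyclin D1, varied less across groups than any other member but CDKN1B. It stood at 166, 198 and 189 CPM in EV and at 148, 137 and 125 CPM in TAZ-CAMTA1, which did not overlap EV. CDK4 was 1.35-fold lower in TAZ-CAMTA1 than in EV (log2 -0.43 ± 0.12, edgeR adjusted p = 0.0325). This call was lost without the second or the third library of either group, with log2 values of -0.37 and -0.41 without the EV libraries and -0.43 and -0.37 without the TAZ-CAMTA1 libraries. YAP-TFE3 libraries stood at 213, 232 and 189.7 CPM and were higher than TAZ-CAMTA1 with no overlap (TAZ-CAMTA1 minus YAP-TFE3 log2 -0.63 ± 0.12, edgeR adjusted p = 0.000125). They overlapped EV and YAP5SA and were called against neither (log2 0.20 ± 0.12, edgeR adjusted p = 0.166, and log2 0.22 ± 0.12, edgeR adjusted p = 0.118). The difference from YAP5SA was called without the third YAP-TFE3 library (log2 0.30), without the second YAP5SA library (log2 0.32) and under scaling by total counts (log2 0.33).

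In YAP5SA (184, 205 and 155 CPM), TFE3, EVsub and the libraries labelled TAZ4SA (205, 189 and 143 CPM), CDK4 overlapped EV and was not called, although under scaling by total counts it was called lower in the libraries labelled TAZ4SA (log2 -0.24). CAMTA1 libraries, at 145, 155 and 156 CPM, lay below all 3 EVsub libraries, with an unadjusted p of 0.036 and an edgeR adjusted p of 0.349 (log2 -0.26 ± 0.12). TAZ-CAMTA1 was lower than the libraries labelled TAZ4SA (log2 -0.39 ± 0.12, edgeR adjusted p = 0.00767), which was no longer called without the first TAZ4SA library (log2 -0.28) and under scaling by total counts (log2 -0.18). The genes TSPAN31 and MARCHF9 overlap CDK4 on the opposite strand, at group means of 27.7 to 61.0 CPM and 13.5 to 24.2 CPM, and whether the authors counted reads by strand is not given in the sources used here, so reads of these genes cannot be told apart from CDK4.

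CDK6 (ENSG00000105810), the other kinase partner, ran another course than CDK4. It stood at 109, 84.4 and 70.6 CPM in EV, at 52.4, 50.5 and 60.8 CPM where the label was TAZ4SA, and at 105, 111 and 106 CPM in TAZ-CAMTA1. The libraries labelled TAZ4SA lay below all EV libraries, and CDK6 was 1.61-fold lower there (log2 -0.69 ± 0.18, edgeR adjusted p = 0.00296). TAZ-CAMTA1 overlapped EV (log2 0.29 ± 0.18, edgeR adjusted p = 0.428) and was 1.97-fold higher than the libraries labelled TAZ4SA (log2 0.98 ± 0.18, edgeR adjusted p = 8.28e-05).

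YAP-TFE3 libraries stood at 95.1, 73.5 and 53.1 CPM and YAP5SA libraries at 67.3, 71.0 and 86.4 CPM, and neither group was called against EV. Without the first YAP-TFE3 library, CDK6 was called lower in YAP-TFE3 than in EV (log2 -0.47, edgeR adjusted p = 0.0391). TAZ-CAMTA1 was higher than YAP-TFE3 (log2 0.54 ± 0.18, edgeR adjusted p = 0.0174), but not without the third YAP-TFE3 library (log2 0.35). Below confluence, CDK6 stood at 144, 109 and 125 CPM in EVsub and was 1.43-fold higher than in EV (log2 0.51 ± 0.18, edgeR adjusted p = 0.0268). That call was lost without the second (log2 0.49) or the third EV library (log2 0.38), without the first (log2 0.41) or the third EVsub library (log2 0.52) and under scaling by total counts (log2 0.45). CAMTA1 libraries had the highest CDK6, at 158, 157 and 148 CPM, above all EVsub libraries but not called against them (log2 0.30 ± 0.18, edgeR adjusted p = 0.552).

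CDKN1A (ENSG00000124762, chromosome 6, 36676460 to 36687337, plus strand) encodes p21, the best known transcriptional target of p53 among the CDK inhibitors. It stood at 7.77, 7.66 and 9.55 CPM in EV, at 18.2, 17.2 and 15.5 CPM where the label was TAZ4SA, and at 13.3, 13.4 and 11.2 CPM in YAP5SA. Both groups lay wholly above EV. CDKN1A rose 2.04-fold in the libraries labelled TAZ4SA (log2 1.03 ± 0.15, edgeR adjusted p = 3.12e-06) and 1.52-fold in YAP5SA (log2 0.61 ± 0.15, edgeR adjusted p = 0.00176).

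CDKN1A was not called higher in either fusion. YAP-TFE3 libraries stood at 6.67, 5.90 and 8.33 CPM and overlapped EV (log2 -0.25 ± 0.15, edgeR adjusted p = 0.174). Without the third of them CDKN1A was called lower than in EV (log2 -0.40, edgeR adjusted p = 0.0373). CDKN1A was 1.81-fold lower in YAP-TFE3 than in YAP5SA (log2 -0.86 ± 0.15, edgeR adjusted p = 3.14e-05). TAZ-CAMTA1 libraries stood at 6.29, 4.42 and 6.64 CPM, below all EV libraries, and as a group were 2.93-fold lower than the libraries labelled TAZ4SA (log2 -1.55 ± 0.15, edgeR adjusted p = 7.12e-09). Against EV, CDKN1A was 1.43-fold lower in TAZ-CAMTA1 (log2 -0.52 ± 0.15, edgeR adjusted p = 0.0471). This last call was lost in 5 of 6 fits that left out 1 library, all but that without the third TAZ-CAMTA1 library, at log2 values from -0.59 to -0.36, and when these 2 groups alone were fitted (log2 -0.52). EVsub libraries, at 10.2, 8.47 and 10.3 CPM, overlapped EV (log2 0.22 ± 0.15, edgeR adjusted p = 0.253). The long noncoding gene DINOL overlaps CDKN1A on the opposite strand.

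CDKN1B (ENSG00000111276, chromosome 12, 12685498 to 12722369, plus strand) encodes p27, which accumulates in resting cells largely through protein stability. Its mRNA stood at 62.9, 58.9 and 58.0 CPM in EV and at 72.4, 79.5 and 88.7 CPM in TAZ-CAMTA1, all above EV. CDKN1B was 1.34-fold higher in TAZ-CAMTA1 than in EV (log2 0.42 ± 0.11, edgeR adjusted p = 0.0256), 1.39-fold higher than in the libraries labelled TAZ4SA (log2 0.47 ± 0.11, edgeR adjusted p = 0.000954) and 1.4-fold higher than in YAP-TFE3 (log2 0.48 ± 0.11, edgeR adjusted p = 0.000983). The call against EV was lost without the second (log2 0.41) or the third EV library (log2 0.40), without the second (log2 0.43) or the third TAZ-CAMTA1 library (log2 0.34) and under scaling by total counts (log2 0.42).

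In the other comparisons with an empty vector CDKN1B differed by at most log2 0.22, the value in YAP5SA, and was not called. GPR19 overlaps it on the opposite strand, at group means of 2.17 to 5.22 CPM. The difference between YAP-TFE3 (61.0, 56.9 and 54.4 CPM) and YAP5SA (62.4, 71.1 and 76.2 CPM) was log2 -0.28 ± 0.11 (edgeR adjusted p = 0.0337). It was lost without the second (log2 -0.27) or the third YAP5SA library (log2 -0.22), without the second (log2 -0.28) or the third YAP-TFE3 library (log2 -0.24), under scaling by total counts (log2 -0.18), with no filter on low counts (log2 -0.26) and when these groups alone were fitted (log2 -0.30). Per kb of exon, CDKN1B mRNA was 4.62 ± 1.08 times CDKN1A mRNA in TAZ-CAMTA1, 2.36 ± 0.347 times in EV, 2.73 ± 0.543 times in YAP-TFE3 and 1.12 ± 0.290 times in the libraries labelled TAZ4SA (SD, n = 3).

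CDKN1C (ENSG00000129757, chromosome 11, 2883213 to 2885775, minus strand) encodes p57, an imprinted inhibitor expressed in differentiating tissues. It was low throughout, at 2.66, 4.23 and 3.01 CPM in EV and 6.47, 5.67 and 5.25 CPM in the libraries labelled TAZ4SA, which did not overlap EV. The difference was 1.76-fold (log2 0.81 ± 0.28, edgeR adjusted p = 0.0174), lost without the first (log2 0.67) or the third EV library (log2 0.75), without the first TAZ4SA library (log2 0.73) and under scaling by total counts (log2 0.61). TAZ-CAMTA1 (2.84, 3.53 and 4.34 CPM) was lower than the libraries labelled TAZ4SA (log2 -0.69 ± 0.27, edgeR adjusted p = 0.0338), a call lost without the first (log2 -0.61) or second TAZ4SA library (log2 -0.71), without the first (log2 -0.57) or second TAZ-CAMTA1 library (log2 -0.68) and under scaling by total counts (log2 -0.49). In the other comparisons CDKN1C was not called.

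**Figure D3:**
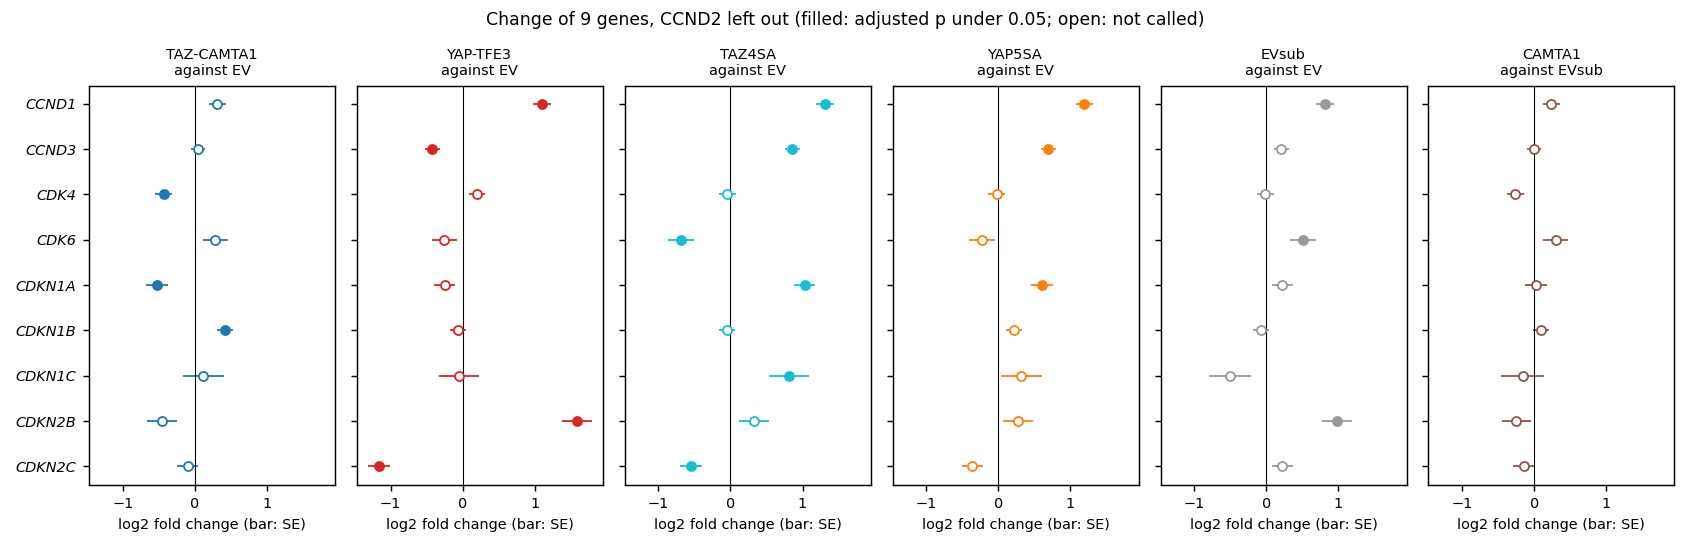
Log2 fold change of 9 of the genes, CCND2 left out for its few counts, in 6 comparisons. Each point is the fitted change, its horizontal bar is 1 SE on either side, filled points have an edgeR adjusted p under 0.05 and the vertical line marks no change. In YAP-TFE3, CDKN2B lay farthest to the right at 1.58 and CDKN2C farthest to the left at -1.16, and in CAMTA1 against EVsub no gene was called.

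CDKN2B (ENSG00000147883, chromosome 9, 22002903 to 22009305, minus strand) encodes p15, an inhibitor known for its induction by TGF-beta, and it was highest in YAP-TFE3 cells. EV libraries stood at 39.9, 37.4 and 33.4 CPM and YAP-TFE3 libraries at 141, 132 and 59.1 CPM. All 3 lay above EV, the third far below the other two. CDKN2B rose 3.00-fold in YAP-TFE3 over EV (log2 1.58 ± 0.21, edgeR adjusted p = 1.04e-06) and was 2.48-fold higher than in YAP5SA (log2 1.31 ± 0.21, edgeR adjusted p = 1.13e-05). Without the third YAP-TFE3 library these differences were log2 1.89 (edgeR adjusted p = 1.53e-10) and log2 1.61 (edgeR adjusted p = 1.89e-09).

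The libraries labelled TAZ4SA (45.0, 46.4 and 47.2 CPM) and YAP5SA (44.5, 42.2 and 47.4 CPM) lay just above EV without overlap, and neither was called (log2 0.32 ± 0.21 and 0.28 ± 0.21, edgeR adjusted p = 0.207 and 0.298). TAZ-CAMTA1 stood at the other end, with 21.8, 28.7 and 30.4 CPM, below all EV libraries but not called (log2 -0.45 ± 0.21, edgeR adjusted p = 0.251). The fusions differed 4.11-fold from each other (TAZ-CAMTA1 minus YAP-TFE3 log2 -2.04 ± 0.21, edgeR adjusted p = 4.12e-08). Apart from CCND2, this was the widest difference of any member between the fusions. TAZ-CAMTA1 was also lower than the libraries labelled TAZ4SA (log2 -0.78 ± 0.21, edgeR adjusted p = 0.00316).

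CDKN2B was also higher below confluence, at 77.4, 53.1 and 88.1 CPM in EVsub, 1.97-fold over EV (log2 0.98 ± 0.21, edgeR adjusted p = 0.000778) and with no overlap. CAMTA1 libraries, at 59.1, 61.4 and 63.9 CPM, overlapped EVsub (log2 -0.25 ± 0.20, edgeR adjusted p = 0.73). The antisense gene CDKN2B-AS1 overlaps CDKN2B and held 18 to 73 counts per library, at group means of 1.07 to 1.97 CPM, and its group mean was 1.41 CPM in YAP-TFE3 and 1.48 CPM in EV.

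CDKN2C (ENSG00000123080, chromosome 1, 50960745 to 50974634, plus strand) encodes p18, another INK4 inhibitor of CDK4 and CDK6, and it moved opposite to CDKN2B in YAP-TFE3 cells. It stood at 48.5, 51.3 and 48.0 CPM in EV and at 18.6, 18.2 and 29.3 CPM in YAP-TFE3. All YAP-TFE3 libraries lay below EV, with the third again nearest to it. CDKN2C fell 2.24-fold in YAP-TFE3 (log2 -1.16 ± 0.15, edgeR adjusted p = 9.1e-07), and without the third YAP-TFE3 library the difference was log2 -1.42 (edgeR adjusted p = 1.07e-08).

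CDKN2C was also 1.46-fold lower in the libraries labelled TAZ4SA (37.3, 37.1 and 26.7 CPM, log2 -0.55 ± 0.15, edgeR adjusted p = 0.00411). In YAP5SA (41.1, 42.4 and 31.6 CPM) it lay below EV without overlap and just missed the threshold (log2 -0.36 ± 0.15, edgeR adjusted p = 0.0539). It was called without the second YAP5SA library (log2 -0.44), under scaling by total counts (log2 -0.55), with no filter on low counts (log2 -0.35) and when these groups alone were fitted (log2 -0.37). YAP-TFE3 was lower than YAP5SA (log2 -0.80 ± 0.15, edgeR adjusted p = 0.000108) and lower than TAZ-CAMTA1 (TAZ-CAMTA1 minus YAP-TFE3 log2 1.06 ± 0.15, edgeR adjusted p = 4.22e-06). TAZ-CAMTA1, at 44.3, 42.6 and 51.0 CPM, overlapped EV (log2 -0.10 ± 0.15, edgeR adjusted p = 0.782) and was higher than the libraries labelled TAZ4SA (log2 0.45 ± 0.15, edgeR adjusted p = 0.0144). The last call was lost without the third TAZ4SA library (log2 0.30) or the third TAZ-CAMTA1 library (log2 0.33). In EVsub, at 52.6, 60.7 and 59.4 CPM, CDKN2C lay above all EV libraries and was not called (log2 0.22 ± 0.15, edgeR adjusted p = 0.249).

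**Figure D4:**
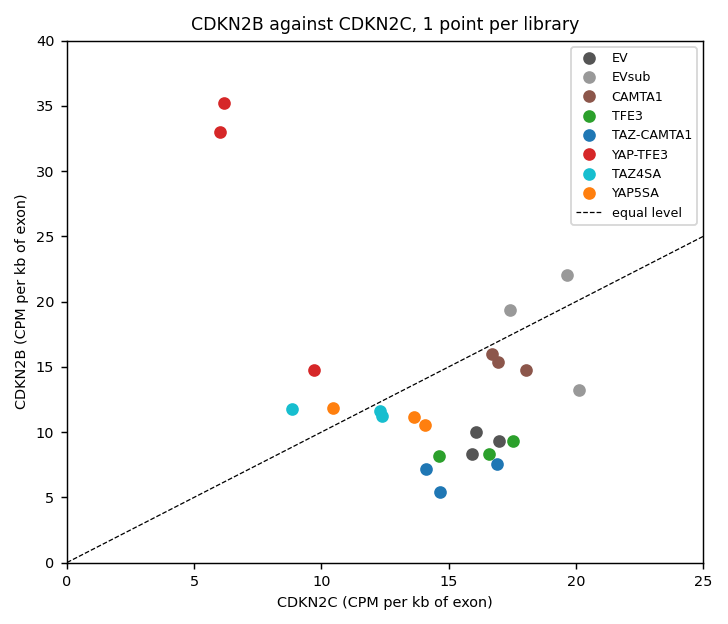
CDKN2B against CDKN2C in each library, both in CPM per kb of exon, with colours for the groups and a dashed line where both levels are equal. The first and second YAP-TFE3 libraries lie at the upper left, with ratios of 5.72 and 5.49, the third has a ratio of 1.52, and every EV, TFE3 and TAZ-CAMTA1 library lies below the line.

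Because the pair diverged, their balance shifted. Per kb of exon, the ratio of CDKN2B to CDKN2C was 0.622, 0.550 and 0.524 in EV and 5.72, 5.49 and 1.52 in YAP-TFE3. On this scale p18 mRNA thus exceeded p15 mRNA in the confluent EV libraries and the reverse held in all 3 YAP-TFE3 libraries. The ratio was 0.371, 0.508 and 0.449 in TAZ-CAMTA1 and 0.502, 0.530 and 0.561 in TFE3. In the libraries labelled TAZ4SA it was 0.910, 0.944 and 1.33, and in EVsub 1.11, 0.659 and 1.12, above 1 in 2 of 3 libraries. The summed level of both genes was 25.6 ± 1.13 CPM per kb in EV and 35 ± 9.17 in YAP-TFE3 (SD, n = 3), where it was 41.4, 39.0 and 24.5 in the single libraries.

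The remaining INK4 genes were a list of 2. CDKN2A, which encodes p16 and ARF from overlapping transcripts and is also overlapped by CDKN2B-AS1, stood at 34.7, 33.3 and 31.0 CPM in EV and at 44.7, 47.2 and 38.3 CPM in YAP-TFE3, all above EV, and rose by log2 0.39 ± 0.14 (edgeR adjusted p = 0.0237). CDKN2D (p19) stood at 8.73, 8.99 and 10.4 CPM in EV and at 5.37, 4.87 and 7.52 CPM in YAP-TFE3, all below EV, and changed by log2 -0.66 ± 0.16 (edgeR adjusted p = 0.00131). CDKN2D was higher than in EV in the libraries labelled TAZ4SA (log2 0.53 ± 0.15, edgeR adjusted p = 0.00652) and in EVsub (log2 0.40 ± 0.15, edgeR adjusted p = 0.0421). In YAP-TFE3 cells the INK4 family was thus split, with CDKN2A and CDKN2B higher and CDKN2C and CDKN2D lower. Neither of this list was called in TAZ-CAMTA1 against EV, where 4.98% of all tested genes were called.

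Counted over the 10 genes, 3 were called in TAZ-CAMTA1 against EV, CDKN1B higher and CDK4 and CDKN1A lower, where 4.98% of the 19997 tested genes were called (3.55% higher and 1.44% lower). In the libraries labelled TAZ4SA, 7 were called against EV, 5 higher and 2 lower, where 49.2% of tested genes were called (25.1% higher and 24.2% lower). In YAP-TFE3, 5 were called, 3 higher and 2 lower, against a background of 48.2% (25.6% and 22.6%). In YAP5SA, 4 were called, all higher, against 44.3% (22.7% and 21.6%). The share of members called in YAP-TFE3 and in YAP5SA was thus near the background of all genes. CCND2, which entered the tests only through the groups in which it was high, is counted among these called members. The same holds for every comparison below that includes YAP-TFE3, YAP5SA or the libraries labelled TAZ4SA.

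In TFE3 against EV, 0 of 10 were called by edgeR, 0 at an unadjusted p under 0.05 and 0 by DESeq2, where 0.035% of tested genes were called, all of them higher (0.035%). In EVsub, 3 were called against EV, all higher (CCND1, CDK6 and CDKN2B), against a background of 36.8% (19.8% and 17.1%). In CAMTA1 against EVsub, 0 were called by edgeR and 0 by DESeq2 and 1, CDK4, had an unadjusted p under 0.05, against 1.83% (1.26% and 0.57%). Full-length CAMTA1 and TFE3 thus gave no called difference in any of the 10 genes.

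Between a fusion and the hyperactive form of its parent, 10 of 10 genes were called in TAZ-CAMTA1 against the libraries labelled TAZ4SA, 3 higher (CDK6, CDKN1B and CDKN2C) and 7 lower, where 53.7% of tested genes were called (26.9% higher and 26.8% lower). Under scaling by total counts 8 were called, without CDK4 and CDKN1C, where 11181 of 19997 tested genes were called. CDK4, CDKN1C and CDKN2C also lost the call in some fits without 1 library. The median log2 change of the 10 was -0.73, and that of all tested genes 0.03. In YAP-TFE3 against YAP5SA, 6 were called, CDKN2B higher and CCND2, CCND3, CDKN1A, CDKN1B and CDKN2C lower, against 52.4% (28.1% and 24.3%). In TAZ-CAMTA1 against YAP-TFE3, 8 were called, 4 in each direction, against 42.7% (19.9% and 22.8%). CCND3, CDK6, CDKN1B and CDKN2C were higher in TAZ-CAMTA1 and CCND1, CCND2, CDK4 and CDKN2B higher in YAP-TFE3. Scaling by total counts instead moved the share of all calls that were higher from 50.9% to 31.4% in the libraries labelled TAZ4SA against EV, from 51.2% to 31.4% in YAP5SA, from 53.1% to 43.8% in YAP-TFE3, from 53.7% to 42.0% in EVsub, from 68.9% to 56.8% in CAMTA1 against EVsub, from 53.6% to 61.9% in YAP-TFE3 against YAP5SA, from 50.1% to 67.0% in TAZ-CAMTA1 against the libraries labelled TAZ4SA and from 46.5% to 57.5% in TAZ-CAMTA1 against YAP-TFE3, while no member's called difference changed sign. The comparisons with EV share its 3 libraries, so their counts are not independent of each other.

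**Figure D5:**
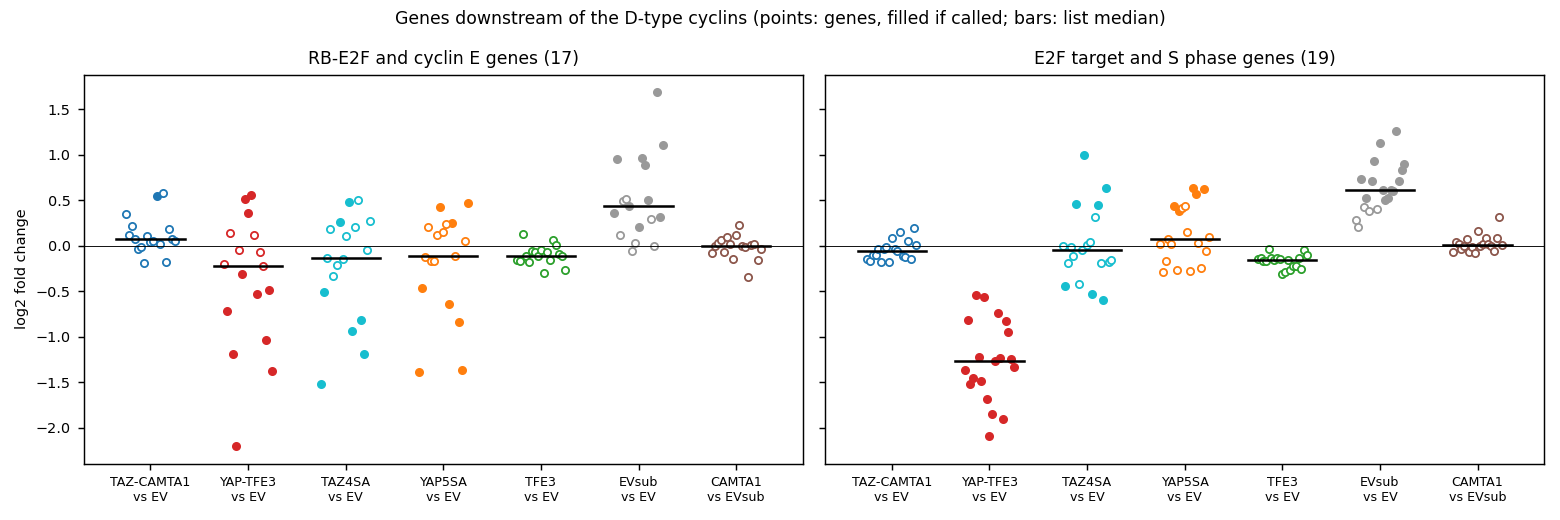
Log2 fold changes of the genes that act downstream of the D-type cyclins, on the left the 17 RB-E2F and cyclin E genes and on the right 19 E2F target and S phase genes, in 7 comparisons. Points are genes, filled if called, and bars are list medians. In YAP-TFE3 all 19 S phase genes lie below 0 and are called, with a median of -1.26, whereas in EVsub all lie above 0, with 14 called and a median of 0.61.

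Downstream of the kinases, the list of 17 RB, E2F, cyclin E and cyclin A genes moved in several directions. In TAZ-CAMTA1, 1 was called, E2F8, at log2 0.54 ± 0.14 (edgeR adjusted p = 0.0252), a share near the 4.98% of all tested genes called there. In YAP-TFE3, 3 were higher and 8 lower, with a list median of log2 -0.23 beside -0.01 for all tested genes and 25.6% of these called higher and 22.6% lower. Without the third YAP-TFE3 library 3 were higher and 9 lower. E2F2, an activating E2F factor, stood at 10.2, 10.3 and 9.07 CPM in EV and 1.01, 0.817 and 4.48 CPM in YAP-TFE3 (log2 -2.20 ± 0.34, edgeR adjusted p = 7.61e-06). E2F1 stood at 46.0, 49.995 and 46.5 CPM in EV and at 10.6, 10.4 and 41.4 CPM in YAP-TFE3 (log2 -1.19 ± 0.30, edgeR adjusted p = 0.00229). For both genes the third YAP-TFE3 library was the highest of its group, and for E2F1 it came close to the EV range. Without it the differences were log2 -3.43 for E2F2 (edgeR adjusted p = 1.32e-11) and log2 -2.17 for E2F1 (edgeR adjusted p = 1.42e-11). CCNA2 (cyclin A2) fell in all 3 libraries, from 61.7, 50.8 and 43.2 CPM in EV to 20.5, 17.4 and 22.1 CPM (log2 -1.38 ± 0.15, edgeR adjusted p = 5.96e-08). E2F7, a repressing E2F factor, was higher (log2 0.56 ± 0.13, edgeR adjusted p = 0.00112).

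RB1 itself, the substrate of the cyclin D kinases, was lower in YAP5SA and in the libraries labelled TAZ4SA. It stood at 127, 108 and 98.6 CPM in EV, at 35.8, 37.7 and 43.0 CPM in the libraries labelled TAZ4SA (log2 -1.52 ± 0.14, edgeR adjusted p = 2.46e-09) and at 40.6, 39.9 and 47.1 CPM in YAP5SA (log2 -1.38 ± 0.14, edgeR adjusted p = 1.08e-08). Neither group overlapped EV. In YAP-TFE3, RB1 stood at 117, 94.0 and 79.1 CPM and overlapped EV, and it was higher than in YAP5SA (log2 1.18 ± 0.13, edgeR adjusted p = 9.36e-08). In TAZ-CAMTA1 it stood at 130.1, 143 and 150.2 CPM, above all EV libraries, and was higher than in the libraries labelled TAZ4SA (log2 1.86 ± 0.14, edgeR adjusted p = 8.09e-11). CCNE2 (cyclin E2) was lower than in EV in the libraries labelled TAZ4SA (log2 -1.19 ± 0.22, edgeR adjusted p = 0.00011) and in YAP5SA (log2 -1.37 ± 0.23, edgeR adjusted p = 3.28e-05). In total the list had 3 higher and 5 lower in YAP5SA, against 2 higher and 5 lower in the libraries labelled TAZ4SA, where 44.3% and 49.2% of all tested genes were called.

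Below confluence, 10 of the 17 were higher and 0 lower in EVsub than in EV, where 19.8% of all tested genes were called higher, and the list had a median of log2 0.43 and a lowest value of log2 -0.06. CCNE2 went from 4.8, 3.35 and 3.30 CPM in EV to 13.2, 11.4 and 12.4 CPM in EVsub (log2 1.69 ± 0.19, edgeR adjusted p = 1.96e-06), and CCNA2 to 118, 108 and 110.1 CPM (log2 1.11 ± 0.15, edgeR adjusted p = 7.91e-06). No EVsub library overlapped EV for either gene. In CAMTA1 against EVsub and in TFE3 against EV, 0 of the 17 were called, beside 1.83% and 0.035% of all tested genes.

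The 19 E2F target and S phase genes, which encode the machinery of DNA replication and of entry into mitosis, were all lower in YAP-TFE3 than in EV, with a median of log2 -1.26 and a range from -2.09 to -0.54. All were called, where 22.6% of all tested genes were called lower. RRM2, a subunit of the ribonucleotide reductase, stood at 120.1, 121 and 112 CPM in EV and at 14.8, 16.1 and 51.6 CPM in YAP-TFE3 (log2 -2.09 ± 0.28, edgeR adjusted p = 9.96e-07, and log2 -2.93 without the third library, edgeR adjusted p = 9.73e-14). TYMS, the thymidylate synthase, stood at 65.1, 68.4 and 55.7 CPM in EV and at 12.4, 12.9 and 26.9 CPM in YAP-TFE3 (log2 -1.85 ± 0.20, edgeR adjusted p = 4.19e-08). The third library was again the highest of the group, yet below every EV library for both genes. Averaged over the list, log2 CPM was 7.04, 7.06 and 6.91 in EV and 5.39, 5.38 and 6.2 in YAP-TFE3. Without the third library all 19 were again called lower, with a median of log2 -1.57.

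In YAP-TFE3 cells, higher CCND1 mRNA thus stood beside higher CDKN2B, lower CDKN2C and lower S phase genes. In YAP5SA, where CCND1 was not distinguished from YAP-TFE3, 5 of the 19 S phase genes were higher and 0 lower than in EV, with a median of log2 0.08. Of all tested genes, 22.7% were called higher and 21.6% lower there, so the share called higher was near the background. In the libraries labelled TAZ4SA 4 were higher and 3 lower, at a median of log2 -0.05, beside 25.1% and 24.2% of all tested genes. Compared directly with YAP5SA, all 19 were lower in YAP-TFE3, at a median of log2 -1.39, and all 19 were higher in TAZ-CAMTA1 than in YAP-TFE3, at a median of log2 1.22. Of all tested genes, 24.3% were called lower in the former comparison and 19.9% higher in the latter. In TAZ-CAMTA1 against EV and in TFE3 against EV none of the 19 was called by edgeR, beside 4.98% and 0.035% of all tested genes. In EVsub 14 were higher and 0 lower, at a median of log2 0.61, where 19.8% of all tested genes were called higher. Higher CCND1, CDK6 and CDKN2B there thus stood beside higher S phase genes.

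The factors that assemble, activate or degrade cyclin-CDK complexes made up a list of 14. In YAP-TFE3, 5 were higher and 1 lower than in EV, a share near the 48.2% of all tested genes called there, and 5 and 3 without the third YAP-TFE3 library. CCNH, the cyclin of the CDK-activating kinase, rose by log2 0.94 ± 0.14 (edgeR adjusted p = 5.15e-06) and its assembly factor MNAT1 by log2 0.56 ± 0.13 (edgeR adjusted p = 0.00108), whereas CKS2, a small CDK-binding subunit, fell (log2 -0.30 ± 0.09, edgeR adjusted p = 0.00876). In the libraries labelled TAZ4SA 6 were higher and 3 lower, and in YAP5SA 5 and 2, beside 49.2% and 44.3% of all tested genes. CKS1B, the cofactor with which SKP2 targets p27 for degradation, stood at 54.9, 56.3 and 55.7 CPM in EV, at 109.8, 109 and 103 CPM in the libraries labelled TAZ4SA (log2 0.95 ± 0.10, edgeR adjusted p = 2.81e-08) and at 116, 112 and 111 CPM in YAP5SA (log2 1.02 ± 0.10, edgeR adjusted p = 8.48e-09). FBXW7, the receptor of the ubiquitin ligase for cyclin E, was lower in both (log2 -0.73 ± 0.13, edgeR adjusted p = 6.71e-05 and log2 -0.55 ± 0.13, edgeR adjusted p = 0.00135). SKP2 was higher in YAP5SA than in EV (log2 0.83 ± 0.17, edgeR adjusted p = 0.000447) and lower in YAP-TFE3 than in YAP5SA (log2 -1.23 ± 0.18, edgeR adjusted p = 2.57e-06), and without the third YAP-TFE3 library it was also called lower there than in EV (log2 -0.79, edgeR adjusted p = 1.25e-05). In TAZ-CAMTA1, CUL1 alone was called (log2 0.26 ± 0.07, edgeR adjusted p = 0.0261), where 4.98% of all tested genes were called. In EVsub 9 were higher and 1 lower, where 36.8% of all tested genes were called.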

How the data were processed

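Each library had its own deposited table of raw counts, as whole numbers for Ensembl genes, made by the authors from stranded poly(A) libraries aligned to hg38. The study's methods name Salmon and tximport for gene-level counts, but whether they made the deposited tables, and how strand was used, is not given in the sources used here. Groups and replicate numbers came from the sample titles. GENCODE release 44 gave symbols, coordinates and exon lengths (all annotated exons of a gene merged) for 56104 of the 60279 genes.

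All 24 libraries were fitted together with edgeR 4.0.16 in R 4.3.3 (quasi-likelihood test, 1 mean per group, scaling by trimmed mean of M-values). In 10 comparisons the test covered the 19997 genes that averaged 5 counts or more, with Benjamini-Hochberg adjustment over all of them, and a gene was called at an adjusted p under 0.05. CPM denotes a count relative to the scaled library size. Errors of log2 values are approximate standard errors, taken as the size of the log2 value over the square root of the edgeR F statistic. Pairs of replicates differed by more than sampling noise (chi-square per degree of freedom 3.33 to 71.4), so none was counted as a duplicate. In simulated counts for TAZ-CAMTA1 against EV, 85% of 200 changed genes among 19830 tested were called and 3.41% of calls were false. The planted changes lay in well-counted genes, and each was larger than any called member difference of this comparison. All other genes were set to the EV level in every group, unlike in the data. These shares thus check the procedure and do not measure power or error for the calls reported here.

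All 10 genes were named, though not with a value in every comparison. From each accompanying list, up to 3 called genes per direction were named, those with the largest change and a mean of at least 100 counts. The genes and lists were chosen with earlier results of these data known. Alternatives were DESeq2 1.42.0, its size factors, total-count scaling, other filters, a test against a log2 change of 1, a replicate block, fits on the groups compared only and fits without each library.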

Additional observations from a re-analysis of the deposited data

How the results depend on the processing

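Of the 100 log2 changes of the 10 genes in 10 comparisons, 46 were called, and 36 of these kept their call under every alternative except the test against a log2 change of 1, which lost 37. No value of the 46 called ones changed direction. Leaving out 1 library lost the call of 10 at least once and gave a call to 4 others, and the remaining alternatives lost 7 and gave 9. In TAZ-CAMTA1 against EV the count of 3 members ranged from 0 to 2 in the fits without 1 library (0 without the second or the third EV library or the second TAZ-CAMTA1 library, 1 without the third TAZ-CAMTA1 library), rose to 5 with no filter on low counts (CCND1 at log2 0.33 and CDKN2B at log2 -0.44 were added) and was 0 against a log2 change of 1. Against that same log2 change of 1 the counts were 2 in the libraries labelled TAZ4SA, 2 in YAP-TFE3, 1 in YAP5SA and 0 in EVsub, each against EV, 2 in TAZ-CAMTA1 against the libraries labelled TAZ4SA, 1 in YAP-TFE3 against YAP5SA and 1 in TAZ-CAMTA1 against YAP-TFE3. In the same order, 1506, 1385, 1441, 80, 1574, 1788 and 977 of the 19997 tested genes were called. In TAZ-CAMTA1 against EV 49 of them were called, and 1367 of 41116 with no filter on low counts. When CAMTA1 and EVsub alone were fitted, 1 member was called (CDK4 at log2 -0.26). The causes of these changes were not tested. Over all genes, CAMTA1 against EVsub gave 366 calls, 547 with DESeq2, 652 with no filter and 662 with these groups alone, and TFE3 against EV gave 7, 15, 40 and 2. In the fits without 1 library these counts ranged from 176 to 446 and from 1 to 12, and the 996 calls of TAZ-CAMTA1 against EV fell to between 544 and 885. Scaling by total counts shifted the median over all genes, on the log2 scale, from -0.03 to -0.23 in the libraries labelled TAZ4SA and from -0.04 to -0.22 in YAP5SA.

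Same-numbered libraries correlated weakly, and in no comparison did every such pair correlate above 0.1 (mean correlations -0.0257 to 0.129). In YAP-TFE3 against EV all 6 libraries correlated best with their own number. In EVsub against EV and in TAZ-CAMTA1 against the libraries labelled TAZ4SA 5 of 6 did, and in the other comparisons 1 to 4 of 6. Whether replicate numbers pair the libraries was thus not settled. With the replicate block, 3, 7, 5 and 4 members were called in TAZ-CAMTA1, the libraries labelled TAZ4SA, YAP-TFE3 and YAP5SA against EV, as many as without it. In the same order, 1105, 9884, 9678 and 8961 of the 19997 tested genes were called with the block.

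At 3 libraries per group, and with the low counts of CCND2 and CDKN1C, small differences in these genes were not detectable at this depth.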

Other observations

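Of 20 genes commonly listed as targets of p53, the main activator of CDKN1A, 10 were higher and 2 lower in YAP-TFE3 than in EV, at a median of log2 0.29, where 48.2% of all tested genes were called (25.6% higher and 22.6% lower). CDKN1A itself was not called there, but was lower without the third YAP-TFE3 library (log2 -0.40, edgeR adjusted p = 0.0373). GDF15, a secreted stress cytokine, stood at 0.518, 0.457 and 0.388 CPM in EV and at 66.7, 75.2 and 16.95 CPM in YAP-TFE3 (log2 6.83 ± 0.50, edgeR adjusted p = 7.63e-11), and GADD45A and FAS rose by log2 1.85 ± 0.20 (edgeR adjusted p = 3.84e-08) and 1.54 ± 0.20 (edgeR adjusted p = 8.15e-07), while SESN1 was lower (log2 -0.69 ± 0.12, edgeR adjusted p = 6.47e-05). Without that library 10 of the list were higher and 3 lower. In the libraries labelled TAZ4SA, where CDKN1A was higher, 8 of the list were higher and 6 lower than in EV, with BTG2 lowest (log2 -1.74 ± 0.14, edgeR adjusted p = 2.5e-10), and in YAP5SA 7 were higher and 4 lower, beside 49.2% and 44.3% of all tested genes called. In TAZ-CAMTA1 2 were higher and 1 lower, FAS (log2 0.86 ± 0.20, edgeR adjusted p = 0.0114), PHLDA3 (log2 0.60 ± 0.15, edgeR adjusted p = 0.0188) and BBC3 (log2 -0.58 ± 0.14, edgeR adjusted p = 0.0106). Of all tested genes, 3.55% were called higher and 1.44% lower there. In EVsub 3 were higher and 6 lower, beside 36.8% of all tested genes, and in TFE3 against EV and CAMTA1 against EVsub 0 were called by edgeR, 0 by DESeq2 and 0 and 2 had an unadjusted p under 0.05. In the last 2 comparisons 0.035% and 1.83% of all tested genes were called by edgeR.

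The 7 genes that are known to be amplified along with CDK4 on chromosome 12 in liposarcoma moved in both directions. In YAP-TFE3 against EV 2 were higher (CPM, log2 0.92 ± 0.13, and TSPAN31, log2 0.39 ± 0.12) and 2 lower (HMGA2, log2 -0.60 ± 0.15, and METTL1, log2 -0.33 ± 0.11). Of all tested genes, 25.6% were called higher and 22.6% lower there, so the list lay near the background. Without the third YAP-TFE3 library 3 were higher and 1 lower, and TSPAN31 (log2 0.22) and METTL1 (log2 -0.24) were not called. HMGA2 stood at 122, 98.0 and 77.6 CPM in EV, at 253, 217 and 234 CPM in YAP5SA and at 72.3, 67.3 and 56.5 CPM in YAP-TFE3. MDM2, the ubiquitin ligase of p53, was lower in the libraries labelled TAZ4SA (log2 -0.67 ± 0.14, edgeR adjusted p = 0.000269) and in YAP5SA (log2 -0.41 ± 0.14, edgeR adjusted p = 0.0159). In TAZ-CAMTA1 against EV 0 of the 7 were called by edgeR, 0 by DESeq2 and 2 had an unadjusted p under 0.05, beside 4.98% of all tested genes called by edgeR. In TFE3 against EV and CAMTA1 against EVsub 0 were called by edgeR and 0 by DESeq2, and 1 in each had an unadjusted p under 0.05. Of all tested genes, 0.035% and 1.83% were called by edgeR in these comparisons.

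Among 11525 protein-coding genes that averaged 100 counts or more, those whose 8 group means of log2 CPM followed a member most closely were FOXF1 for CCND1 (Pearson r = 0.994), PPP1R14A for CCND3 (0.994), LINS1 for CDK6 (0.987), PLCB4 for CDKN1A (0.992), FBXO7 for CDKN2B (0.980) and FANCL for CDKN2C (0.995). These are descriptions over 8 groups that share their libraries and scaling, with no test.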
